A study of Homo sapiens with 9 samples.

Results

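The genes studied here encode the pyruvate dehydrogenase complex and the enzymes that switch it off and on, followed in Hep3B cells, an established human liver cancer line. They are 10 of the 60683 genes in the deposited count table, taken by gene symbol, and each symbol matched 1 row. They comprise 4 inhibitory kinases (PDK1, PDK2, PDK3 and PDK4), 4 subunits of the complex (PDHA1, PDHB, DLAT and PDHX) and 2 activating phosphatases (PDP1 and PDP2). All 10 passed the filter on low counts. The study exposed Hep3B cultures for 24 hours to vehicle (DMSO) at 20% O2, vehicle at 1% O2 or 32-134D, an inhibitor of hypoxia-inducible factors (HIFs), at 1% O2, with 3 replicates in each group. The sample labels state no dose of the compound, although the paper gives one for its RNA sequencing. No library combined 32-134D with 20% O2. All groups came from a single cell line, which the labels describe as grown in a mixture of DMEM and F12 with serum. The paper's methods name high-glucose DMEM with serum instead.

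Pyruvate is the end product of glycolysis. The pyruvate dehydrogenase complex, in the mitochondrial matrix, turns it into acetyl-CoA and so joins glycolysis to the citric acid cycle. PDHA1 and PDHB form the first enzyme, DLAT is the core that carries lipoic acid, and PDHX anchors the last enzyme, DLD, to that core. The PDK kinases phosphorylate PDHA1 and stop the complex, and the PDP phosphatases remove the phosphate and restart it. PDK1 is known as a HIF-1 target whose induction diverts pyruvate from the mitochondria to lactate, and PDK4 is known in liver for its response to fasting and fatty acids.

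The start sites of these genes were searched for the core of the hypoxia-response element, the short sequence that HIFs bind, because PDK1 is a known HIF target. The cores ACGTG and GCGTG were searched on both strands in the 250 bases upstream of each RefSeq start (GRCh38.p14). Of the 10 genes, 9 matched the table of starts, all but PDP1, with 13 windows between them, of which 8 held a match in 8 genes. Among all 35116 windows of this length, 18.5% held ACGTG, 32.2% held GCGTG and 43.2% held either, so a match is common and is given as a description of the letters only. PDHB, which was not called in any comparison, held 6 matches, the most of the 9 genes, and DLAT, PDHA1 and PDP2, also not called, held 3 each, so that matches were not limited to genes that rose. In these numbers the palindrome CACGTG, found in the windows of PDHB, PDP2 and PDK2, counts as 2 matches, 1 on each strand. The sequences below surround the matches of the 3 kinases that had one and of PDHX, the kinases for comparison within the family and PDHX as the subunit that rose, in stretches of 30 bases on the strand of the gene, 5′ to 3′. Capitals mark the cores, and CACGT is ACGTG read on the opposite strand.
PDK1, chr2:172556060-172556089, plus strand: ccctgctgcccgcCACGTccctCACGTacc
PDK2, chr17:50095177-50095206, plus strand: ccgccccggcaaaGCGTGggttaagggggc
PDK2, chr17:50095210-50095239, plus strand: cccgggggaagcCACGTGccggggcggaag
PDK3, chrX:24465171-24465200, plus strand: ggcgcgcgcggccGCGTGcccctcgcgctc
PDK3, chrX:24465212-24465241, plus strand: tcgcgcgccgcgtACGTGcagcaaccgact
PDHX, chr11:34916483-34916512, plus strand: ggaggcaaggccaACGTGgttggaggcggg
PDHX, chr11:34916561-34916590, plus strand: ctagcgtctggggGCGTGgccaaccatgcg
The PDK1 stretch ends 1 base before the start and holds 2 cores, both on the opposite strand. In the second PDK2 stretch the palindrome gives 2 matches that overlap. The other window of PDK1, 2 further windows of PDK2 and 1 of PDHX had no match. PDK4 had no match in its window, which is shown whole because PDK4 changed with the other kinases.
PDK4, chr7:95596517-95596766, minus strand: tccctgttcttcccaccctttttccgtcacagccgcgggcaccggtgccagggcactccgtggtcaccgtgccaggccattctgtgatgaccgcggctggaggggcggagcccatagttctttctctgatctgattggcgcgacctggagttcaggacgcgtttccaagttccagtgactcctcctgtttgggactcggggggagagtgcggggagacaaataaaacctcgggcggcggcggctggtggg

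Total counts ran from 6013980 to 40549699 per library, and replicate 2 of vehicle at 20% O2 was the smallest. Levels are given in CPM, counts scaled to library size with TMM factors, and changes as log2 fold changes from 1 edgeR quasi-likelihood fit of the 9 libraries over 22672 genes. A gene was called with an FDR (Benjamini-Hochberg) below 0.05 and a fold change above 1.5. Replicate 3 of 32-134D differed from replicates 1 and 2 of its group by a chi-square per degree of freedom of 36.4 and 32.5, against 1.998 between those 2. All 8 hepatocyte-lineage markers exceeded 1 CPM on average in every group. In hypoxia 2 of them were called lower, AFP at -0.69 and APOB at -3.47 on the log2 scale. With the compound APOB was called higher, at 3.12, and TF, TTR and FGB lower, at -0.80, -0.92 and -0.98. These lower values leaned on replicate 3 of 32-134D. TF had 1545, 1505 and 584 CPM in replicates 1, 2 and 3, TTR 37.9, 34.5 and 9.79 CPM and FGB 33.5, 33.1 and 6.86 CPM. The 4 leukocyte and 3 endothelial markers summed to at most 1.28 CPM per list in every library, and PECAM1, the 1 endothelial marker tested, had log2 fold changes of -1.88 and 1.93. CA9, a HIF target that checks both exposures, had 4.38 and -3.36. Of 3 fibroblast markers, DCN had at most 2 counts in a library, while COL1A1 and PDGFRB were detected, and their sum ran from 32.0 to 35.8 CPM in vehicle at 20% O2, 12.996 to 14.3 CPM in vehicle at 1% O2 and 27.9 to 30.04 CPM with 32-134D. Their part in the results was not tested. In bulk RNA, a change in the number of cells that express a gene and a change in RNA per cell cannot be told apart.

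Hypoxia raised 3 of the 4 kinases, 1 of the 4 subunits and 1 of the 2 phosphatases, and none of the 10 genes was called lower, although PDK2 and PDP2 were lower at the FDR alone. PDK1 rose 16.2-fold, the largest fold change of the 10, and PDK3, PDK4, PDHX and PDP1 rose between 1.61- and 2.14-fold. Of all genes tested, 39.7% were called in this comparison, 19.5% higher and 20.3% lower, against 5 higher and 0 lower of the 10. The split over all genes depended on the scaling, with 4412 higher and 4595 lower here and 3081 and 5848 with total library size. Among the 10 the split with total library size, and likewise with the upper quartile, was 3 higher and 1 lower. At the FDR alone, 7 of the 10 passed, against 53.5% of all genes. The libraries of the groups did not overlap for 9 of the 10 genes, against 60.5% of all genes. The median log2 fold change of the 10 was 0.36, beside 0.000997 over all genes tested.

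**Figure D1:**
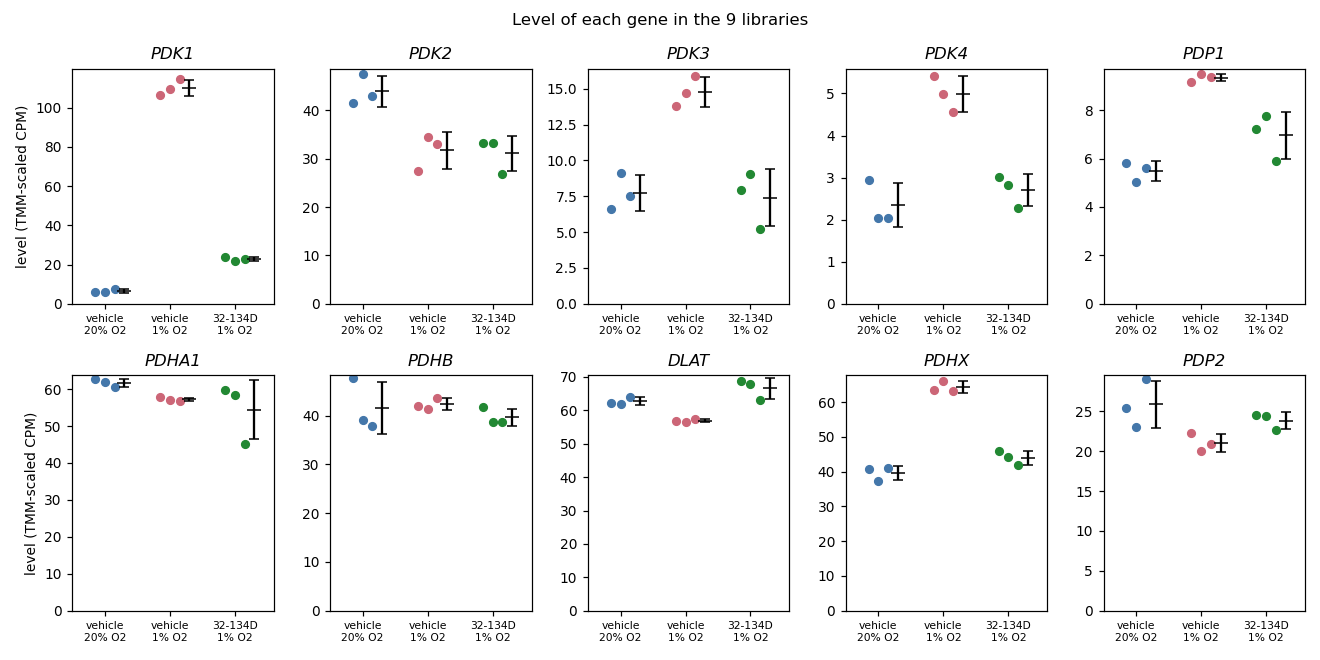
Level of each gene in TMM-scaled CPM (vertical axis, from 0) in the 3 libraries of each group (points), with the mean and SD beside them in black. PDK1 stands at 106.2 to 114.5 CPM in vehicle at 1% O2 and at no more than 7.60 CPM in vehicle at 20% O2, while PDHA1, PDHB and DLAT keep a similar height in the 3 groups.

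PDK1 (ENSG00000152256, chromosome 2, 172555373 to 172608669, plus strand, in GRCh38) had 6.24, 5.81 and 7.60 CPM in replicates 1, 2 and 3 of vehicle at 20% O2. Under vehicle at 1% O2 it had 106.2, 109.6 and 114.5 CPM. With 32-134D it had 23.9, 21.9 and 22.9 CPM. The 3 groups were thus fully separate, with the compound between the vehicles. The log2 fold change in hypoxia was 4.02 (standard error 0.10, FDR 1.67e-12 from edgeR), which was the increase of rank 233 among the genes tested. The counts behind these levels ran from 37 to 4007.

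PDK3 (ENSG00000067992, chromosome X, 24465221 to 24541862, plus strand), the kinase known for the highest activity among the family, had 6.60, 9.11 and 7.51 CPM in vehicle at 20% O2. It rose to 13.8, 14.7 and 15.9 CPM in vehicle at 1% O2, and the vehicle groups did not overlap. Its log2 fold change was 0.96 (standard error 0.18, FDR 0.000317 from edgeR). PDK4 (ENSG00000004799, chromosome 7, 95583499 to 95596491, minus strand) was the least abundant kinase in CPM, with 2.94, 2.04 and 2.04 CPM in vehicle at 20% O2 and as few as 13 counts in a library. In vehicle at 1% O2 it had 5.41, 4.998 and 4.56 CPM, above every library at 20% O2. The log2 fold change was 1.10 (standard error 0.20, FDR 0.000234 from edgeR). Between PDK3 and PDK4 the changes in hypoxia differed by less than either standard error, and both lay far below that of PDK1.

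PDK2 (ENSG00000005882, chromosome 17, 50094737 to 50112152, plus strand), the most widely expressed kinase of the family, went the other way in level. It had 41.4, 47.6 and 42.9 CPM in vehicle at 20% O2 and 27.5, 34.6 and 33.0 CPM in vehicle at 1% O2, so that the groups did not overlap. The log2 fold change was -0.47 (standard error 0.11, FDR 0.00209 from edgeR), short of the fold change threshold, so PDK2 was not called. Its call depended on the scaling, since with total library size its log2 fold change was -0.68 and passed both thresholds. That scaling moved the median of all genes to -0.21, and relative to this median PDK2 stood at -0.47.

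PDHA1, PDHB and DLAT, which carry out the first reactions, were not called in hypoxia. PDHA1 (ENSG00000131828, chromosome X, 19343893 to 19361705, plus strand), the subunit that the kinases phosphorylate, had 62.7, 61.9 and 60.6 CPM in vehicle at 20% O2 and 57.8, 57.1 and 56.9 CPM in vehicle at 1% O2. These ranges lay close to each other without overlap, and the log2 fold change was -0.11 with a 95% interval from -0.31 to 0.10 (FDR 0.363 from edgeR). PDHB (ENSG00000168291, chromosome 3, 58427630 to 58433857, minus strand), its partner in the first enzyme, was the 1 gene whose vehicle groups overlapped, with 38.0 to 47.7 CPM at 20% O2 and 41.3 to 43.7 CPM at 1% O2. Its interval ran from -0.17 to 0.22 on the log2 scale. For DLAT (ENSG00000150768, chromosome 11, 112024814 to 112064390, plus strand) the level was 61.9 to 64.1 CPM at 20% O2 and 56.4 to 57.3 CPM at 1% O2, and its log2 difference was -0.14 (edgeR FDR 0.0953). Changes beyond 1.5-fold lay outside the intervals of all 3 genes.

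PDHX (ENSG00000110435, chromosome 11, 34915829 to 35020591, plus strand), the binding protein for DLD, was the subunit that rose. It had 40.7, 37.2 and 41.0 CPM in vehicle at 20% O2 and 63.6, 66.2 and 63.1 CPM in vehicle at 1% O2. Every hypoxic library was thus above every normoxic one, with a log2 fold change of 0.69 (standard error 0.08, FDR 1.94e-06 from edgeR). The call rested on a fold change of 1.61, near the threshold, and was lost with total library size, where the log2 fold change was 0.48, and 0.69 relative to the median of all genes. PDHX shares exons with APIP on the opposite strand, and the strand setting of the counting is not given in the sources used here, so reads from the shared part cannot be assigned. The log2 fold change of APIP in hypoxia was -0.47, opposite to that of PDHX.

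The phosphatases differed from each other. PDP1 (ENSG00000164951, chromosome 8, 93857807 to 93926066, plus strand), the calcium-stimulated form, rose from 5.81, 5.02 and 5.60 CPM to 9.17, 9.48 and 9.37 CPM. Its log2 fold change was 0.75 (standard error 0.14, FDR 0.000309 from edgeR) and the vehicle groups did not overlap. PDP2 (ENSG00000172840, chromosome 16, 66878589 to 66895754, plus strand), the insulin-responsive form, had 25.5, 23.1 and 29.05 CPM at 20% O2 and 22.2, 20.1 and 20.8 CPM at 1% O2. Its log2 fold change of -0.31 passed the FDR (0.0156 from edgeR) but not the fold change threshold. The call of PDP1 was lost after each library was thinned to the size of the smallest, where the log2 fold change was 0.26, and with total library size, where it was 0.54.

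**Figure D2:**
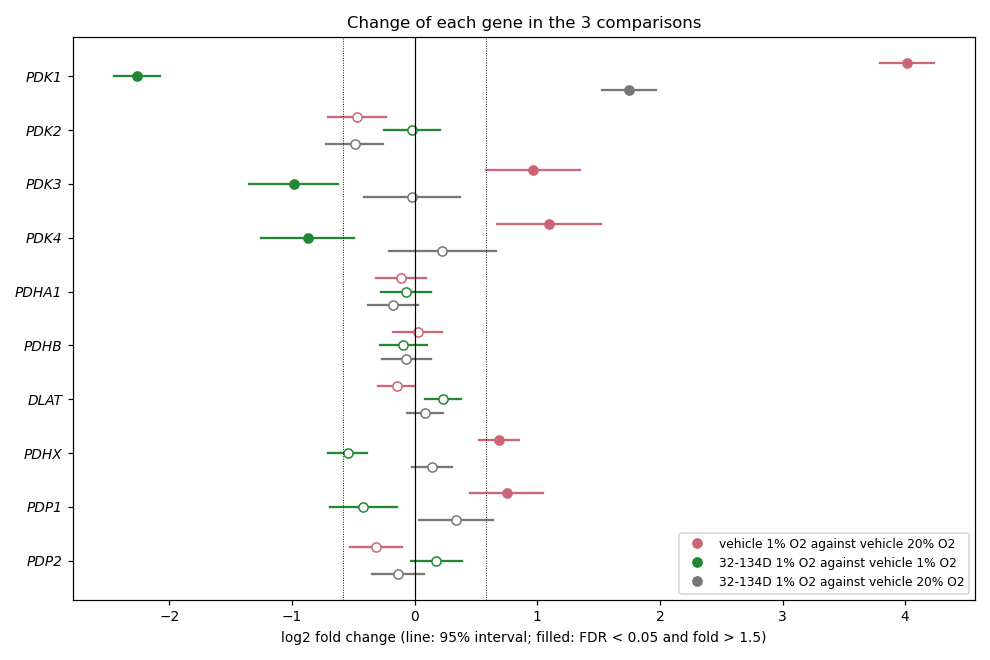
Log2 fold change (horizontal axis) of each gene in the 3 comparisons, with its 95% interval as a line, filled where the FDR was below 0.05 and the fold change above 1.5 (dotted lines). PDK1 lies at 4.02 in hypoxia and at -2.27 with 32-134D, PDK3 and PDK4 move in the same directions by smaller amounts, and PDHA1, PDHB and DLAT stay within the dotted lines.

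With 32-134D at 1% O2, the 3 kinases that hypoxia had raised were lower than in vehicle at 1% O2, and none of the subunits or phosphatases was called. PDK1 was 4.81-fold lower, PDK3 1.98-fold and PDK4 1.83-fold. The 3 called genes of 10 stand beside 29.9% of all genes called in this comparison, 13.7% lower and 16.2% higher. Over all genes 3675 were higher and 3100 lower, and with total library size 4755 and 1847. With the FDR alone, 6 of the 10 passed, against 47.5% of all genes, and the libraries did not overlap for 7 of the 10, against 56.1%. The median log2 fold change of the 10 was -0.26, beside -0.01 over all genes. This comparison and the hypoxia comparison share the vehicle libraries at 1% O2.

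On the log2 scale PDK1 differed by -2.27 (edgeR FDR 2.75e-10, standard error 0.09), the decrease of rank 242 among all genes tested. PDK3 had 7.91, 9.06 and 5.21 CPM with the compound, below each of the 3 vehicle libraries at 1% O2, and its log2 fold change was -0.99 (standard error 0.17, FDR 0.0002 from edgeR). Replicate 3 was the lowest of these libraries, and without it the log2 fold change of PDK3 was -0.80 and stayed past both thresholds. PDK4 had 3.01, 2.83 and 2.29 CPM, and its log2 fold change was -0.87 (standard error 0.18, FDR 0.000874 from edgeR), or -0.78 without replicate 3. For PDK1 the value without replicate 3 was -2.26. PDK2, with 33.1, 33.2 and 26.9 CPM, overlapped with vehicle at 1% O2 and had a log2 fold change of -0.02, with a 95% interval from -0.25 to 0.21.

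Among the other genes, PDHX and PDP1 were lower with the compound by less than the fold change threshold. PDHX had 45.8, 44.2 and 41.9 CPM with 32-134D, all below vehicle at 1% O2, and its log2 difference of -0.55 (edgeR FDR 2.29e-05) is 1.46-fold. PDP1 had 7.20, 7.78 and 5.90 CPM and a log2 fold change of -0.42 (FDR 0.0149). Its direction was lost after thinning to the smallest library, where the value was 0.021 (FDR 0.942). DLAT had 68.9, 67.9 and 63.0 CPM, above every vehicle library at 1% O2, with a log2 fold change of 0.23 (FDR 0.0122) that did not reach the fold change threshold. PDHA1 had 59.9 and 58.3 CPM in replicates 1 and 2 and 45.2 CPM in replicate 3, so its group was spread by that library. Its log2 fold change was -0.07 with all libraries and 0.05 without replicate 3, and it was not called in either. PDHB and PDP2 had log2 fold changes of -0.09 and 0.18, with FDR values of 0.429 and 0.149.

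Against vehicle at 20% O2, PDK1 remained higher with 32-134D and none of the other 9 genes was called. The log2 fold change of PDK1 was 1.75 (standard error 0.10, FDR 1.15e-07 from edgeR), a level 3.36-fold above normoxia. The 1 call of 10 stands beside 3.52% of all genes called in either direction. At the FDR alone, 2 of the 10 genes passed, against 10.3%, and libraries did not overlap for 5 of the 10, against 29.8%. The second gene at the FDR alone was PDK2, with a log2 fold change of -0.49 (FDR 0.0107), whose level was 31.7 ± 3.74 and 31.1 ± 3.63 CPM (SD, n = 3) in the 1% O2 groups. PDK3 and PDK4 had log2 fold changes of -0.02 and 0.23, with 95% intervals from -0.42 to 0.37 and from -0.21 to 0.66. A remaining difference of up to 1.5-fold is therefore within the interval of PDK4.

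Expressed as a share of the log2 rise in hypoxia, the difference between 32-134D and vehicle at 1% O2 was 56.4% for PDK1, 102% for PDK3 and 79.4% for PDK4. It was 79.3% for PDHX and 55.5% for PDP1. After thinning, a single random draw of reads, the rise of PDP1 in hypoxia was itself only 0.26 (edgeR FDR 0.263). Its value with the compound was then 0.021, and no share was read from that fit. The shares hold on the log2 scale only and would differ in CPM. They use the same hypoxic vehicle libraries in both terms and are given without a test.

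To compare levels between genes, CPM was divided by the length of each gene's merged exons in GENCODE 29, in kilobases. In vehicle at 20% O2 the order of the 10 genes on this scale began with PDHA1 at 13.7 ± 0.238 CPM per kilobase (SD, n = 3), DLAT at 12.99 ± 0.252 and PDHX at 10.5 ± 0.559. PDHB at 8.82 ± 1.13 and PDK2 at 8.02 ± 0.586 came next and were within their spread of each other. Below them stood PDP2 at 3.09 ± 0.359, PDK3 at 1.56 ± 0.257 and PDP1 at 0.977 ± 0.0723. PDK4 at 0.518 ± 0.115 and PDK1 at 0.440 ± 0.0629 closed the order and did not differ beyond their spread. In vehicle at 1% O2, PDK1 stood at 7.40 ± 0.280 CPM per kilobase, behind PDHX at 17.1 ± 0.445, PDHA1, DLAT and PDHB. The places in this order depend on the length used. With the median length of the protein-coding transcripts, an alternative chosen after seeing the data, PDK1 stood at 2.19 CPM per kilobase in vehicle at 20% O2, above PDP1 at 1.60 and PDK4 at 0.654, and at 36.8 in vehicle at 1% O2, above the other 9 genes. With 32-134D and merged exons, PDK1 stood at 1.54 ± 0.0640 and PDK3 at 1.49 ± 0.399, which were within their spread of each other. With the median protein-coding length, PDK1 stood at 7.66 and PDK3 at 3.96 in that group.

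The make-up of the kinase transcripts differed between the groups. PDK2 made up 76.1% ± 0.284 (SD, n = 3) of the summed level of the 4 kinases per length in vehicle at 20% O2, and PDK1 made up 4.20% ± 0.763. In vehicle at 1% O2, PDK1 held 42.9% ± 1.38 and PDK2 33.4% ± 2.24. With 32-134D, PDK2 again held most, 60.99% ± 0.322, and PDK1 held 16.7% ± 2.27. The share of PDK3 was 14.8% ± 1.41, 17.3% ± 0.564 and 15.9% ± 2.58 in the same groups, and that of PDK4 was 4.96% ± 1.37, 6.43% ± 0.911 and 6.43% ± 0.244. The shares of PDK1 and PDK2 did not overlap between the groups, and those of PDK3 and PDK4 differed by little more than their spread.

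The sum of the 4 kinases was 10.5 ± 0.730, 17.3 ± 0.995 and 9.30 ± 1.13 CPM per kilobase in vehicle at 20% O2, vehicle at 1% O2 and 32-134D (SD, n = 3). The sum of the 2 phosphatases was 4.07 ± 0.408, 4.18 ± 0.103 and 4.09 ± 0.292, within its spread in the 3 groups. The ratio of the sums was 2.44, 3.11 and 2.30 in the libraries of vehicle at 20% O2 and 3.75, 4.34 and 4.31 in those of vehicle at 1% O2. With 32-134D it was 2.35, 2.32 and 2.13. Each hypoxic vehicle library thus had a higher ratio than any other library. No test was applied to these sums, since their members were chosen together.

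**Figure D3:**
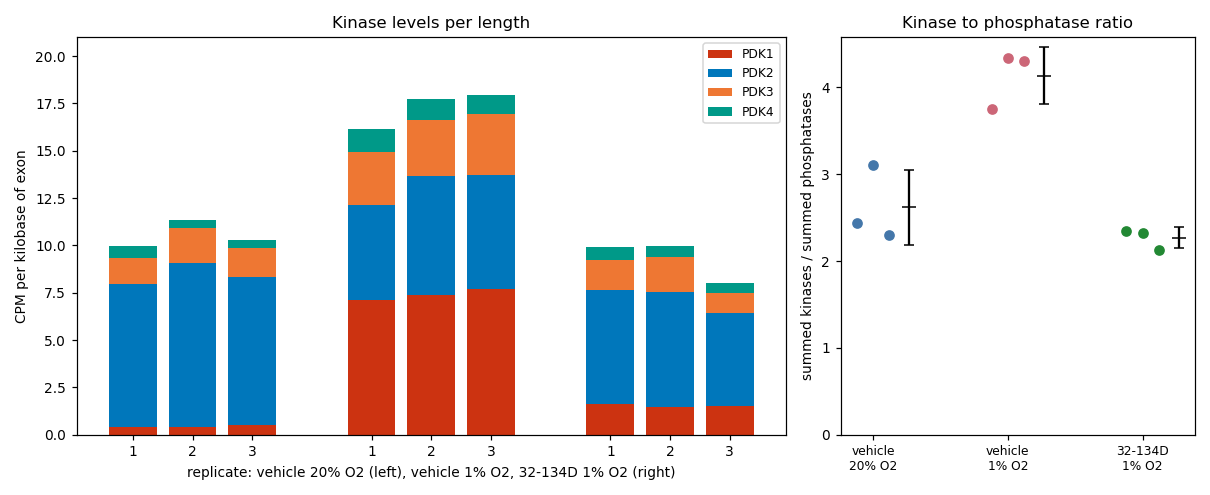
Left, level of PDK1, PDK2, PDK3 and PDK4 in CPM per kilobase of exon (stacked bars, 1 bar per library, vehicle at 20% O2, vehicle at 1% O2 and 32-134D from left to right). Right, ratio of the summed kinases to the summed phosphatases in each library (points) with the mean and SD in black. PDK1 makes up 42.9% of the bars in vehicle at 1% O2 against 4.20% in vehicle at 20% O2.

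These shares depend on the length assigned to each gene, and most on that of PDK1. Its merged exons span 14883 bases, while its protein-coding transcripts in the GENCODE basic set run from 1515 to 14193 bases with a median of 2990. With these median lengths the share of PDK1 was 8.94%, 62.6% and 31.0% in the 3 groups, and that of PDK2 was 71.6%, 21.6% and 50.1%. With the longest transcript the order of PDK1 and PDK2 in vehicle at 1% O2 turned, at 36.1% and 42.8%. Which of PDK1 and PDK2 leads in hypoxia is therefore not settled by these counts. With all 3 lengths the mean share of PDK1 was highest in vehicle at 1% O2 and lowest in vehicle at 20% O2.

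Genes that share exons with the 10 were inspected because their reads could be split. PDK1 overlaps the antisense transcript AC078883.1 (ENSG00000225205), which had 2, 1 and 3 counts in vehicle at 20% O2, 51, 17 and 23 in vehicle at 1% O2 and 7, 8 and 3 with 32-134D. Its log2 fold changes were 3.08 and -2.25, called in both comparisons, in the same directions as PDK1. It had 115 counts in all against 12011 for PDK1, and without a stated strand setting the reads of the pair cannot be told apart. SAMD14, which overlaps PDK2, and MAP3K15, which overlaps PDHA1, were called in none of the 3 comparisons. SAMD14 was uneven with 32-134D, at 4.62, 5.05 and 14.8 CPM in replicates 1, 2 and 3. The pseudogenes PDHA1P1 and PDK1P2 had 0 counts in every library.

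By likeness of pattern over the 9 libraries, measured by Pearson's r of log2 CPM, the nearest genes to PDK1 were GNL2, FOSL2 and SIAH2, with r from 0.9986 to 0.9993. Among the 13901 genes compared, 3276 reached an r of 0.9 with PDK1 and 2506 with PDK4, so such patterns were common. For PDK3 the nearest were CYTH3, RCAN1 and PRKAB2, at 0.991, 0.987 and 0.987, and 684 genes reached 0.9. For PDK4 they were ARL1, DUT and CENPU, between 0.992 and 0.994. PDK2 had the rarest pattern of the 4 kinases, with 100 genes at 0.9 or more, led by TCTN2, TMEM144 and GPS1 at 0.988, 0.977 and 0.968. The 9 points fall into 3 groups, and these values describe likeness only.

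The remaining genes of the complex were not called. DLD, the last enzyme of the complex, had log2 fold changes of -0.05 in hypoxia and -0.04 with 32-134D. PDPR, the regulatory subunit of the phosphatase, had -0.30 (FDR 0.0304 from edgeR) and 0.22, and neither gene was called. PDHA2, the form of the first subunit known from testis, had no count in any library. Of 10 genes for pyruvate supply and other fates of pyruvate, 8 were tested, 4 of which rose and 3 fell in hypoxia, while 2 rose and 2 fell with the compound, against 39.7% and 29.9% of all genes called in either direction. LDHA, which reduces pyruvate to lactate, showed log2 fold changes of 3.46 in hypoxia and -2.38 with 32-134D, in the same directions as PDK1. GPT2, the mitochondrial alanine aminotransferase, showed 1.66 and -0.91, and GPT, the cytosolic form, showed -2.25 and 1.47. ME1, the cytosolic malic enzyme, rose by 0.89 in hypoxia and had -0.11 with the compound. LDHB and ME3 had at most 3 counts in a library and were not tested. MPC1, a subunit of the mitochondrial pyruvate carrier named here after its values were seen, fell by 0.67 on the log2 scale in hypoxia (FDR 0.0348), and its partner MPC2 had -0.02. With 32-134D, MPC1 had 0.20 and was not called. PC, pyruvate carboxylase, also named after its values were seen, had -0.80 and 0.81 and was called in both comparisons.

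The complex needs lipoic acid and thiamine as cofactors, and genes that supply both were among those called. Of 10 genes for the synthesis and attachment of lipoic acid, 5 rose and 0 fell in hypoxia, and 4 were lower and 0 higher with 32-134D, with median log2 fold changes of 0.54 and -0.37. Of all genes 19.5% were higher in hypoxia and 13.7% lower with the compound. ISCA1, an iron-sulfur assembly factor needed for lipoate synthesis, showed 1.66 and -0.96, and LIPT1, the transferase that attaches lipoate, showed 1.40 and -0.91. NFU1 and ISCA2, also iron-sulfur assembly factors, showed 0.82 and 0.61 in hypoxia and -0.64 and -0.73 with the compound. Of the plasma membrane transporters of thiamine, SLC19A2 had log2 fold changes of 1.32 and -0.74 and SLC19A3 had -1.57 and 0.95. With 32-134D, SLC19A3 had 5.05, 4.92 and 1.42 CPM in replicates 1, 2 and 3. Replicate 3 was thus below vehicle at 1% O2, at 1.88 to 2.18 CPM, and the groups overlapped.

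The sister complexes, which use the same chemistry on other 2-oxoacids, moved in both directions. In hypoxia 2 of these 10 genes rose and 4 fell, and with 32-134D 4 were higher and 1 lower, beside 19.5% and 20.3% of all genes in hypoxia and 16.2% and 13.7% with the compound. BCKDHB and BCKDHA encode the partner subunits of the branched-chain enzyme and had opposite log2 fold changes in hypoxia, -2.26 and 1.29, and again with the compound, 1.89 and -0.77. OGDHL, a form of the 2-oxoglutarate enzyme, showed -1.40 and 0.84, and DHTKD1, which acts on 2-oxoadipate, showed -1.25 and 1.15. A list of 10 known transcriptional regulators of the kinase genes was extended by CPT1A, which like PDK4 is a target of PPARA. Of these 11 genes 3 were raised in hypoxia and 3 lower with the compound, beside 19.5% and 13.7% of all genes. They were the same genes in both comparisons, FOXO3 with 1.61 and -1.09, PPARGC1A with 0.75 and -0.89 and FOXO1 with 0.71 and -0.61. Both comparisons use the vehicle libraries at 1% O2, on opposite sides, so opposite signs in the 2 are not independent results. HIF1A and EPAS1, which encode the HIF-1α and HIF-2α subunits, were called in neither. The median log2 fold changes in hypoxia and with 32-134D were 0.33 and -0.21 for the pyruvate list, -0.0795 and 0.0267 for the sister complexes and 0.30 and -0.20 for the regulators, beside 0.000997 and -0.0116 for all genes tested.

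**Figure D4:**
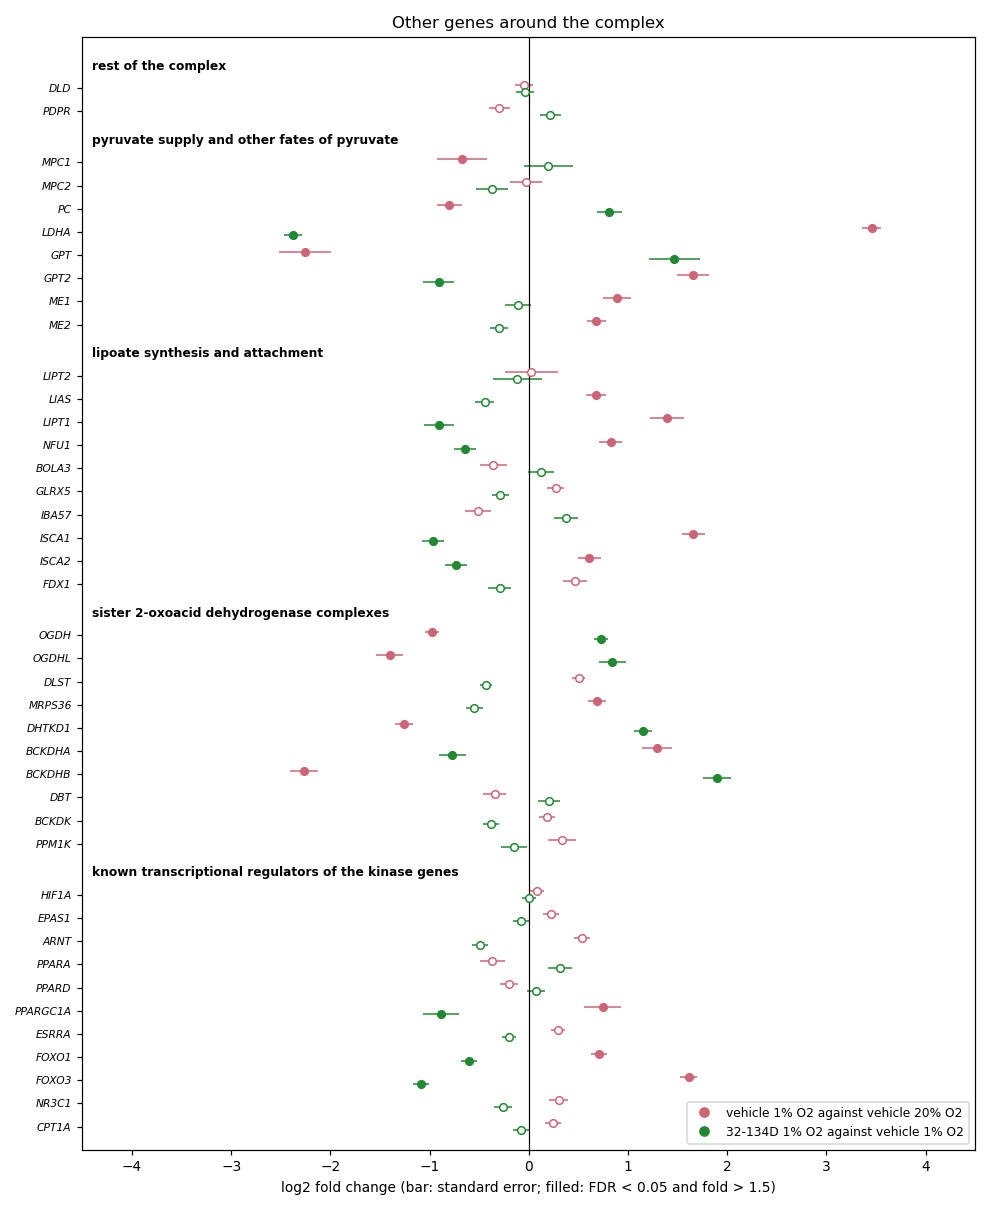
Log2 fold change (horizontal axis, with its standard error) of other genes around the complex, without those for thiamine supply, in hypoxia and with 32-134D at 1% O2, grouped by list and filled where called. LDHA lies at 3.46 in hypoxia, and the called genes lie on opposite sides of 0 in the 2 comparisons where both are filled. The 2 comparisons share the vehicle libraries at 1% O2.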

How the data were processed

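A single table of unnormalized gene counts was deposited by the authors. Per the paper's methods, reads were checked with FastQC, trimmed with Bbduk, mapped with STAR to an Ensembl reference and counted with featureCounts. Tool versions and the strand setting are not given in the sources used here. The 9 columns were matched to samples by the names in the sample titles, and 0 were left unmapped. Counts were fitted with edgeR 4.0.16 in R 4.3.3 (TMM scaling, quasi-likelihood test, 1 fit of the 9 libraries) for genes with counts summing to at least 10, the filter of the study. DESeq2 1.42.0 was an alternative. All p-values were adjusted over the 22672 genes tested. Intervals are 95% intervals of the fit. The labels call the replicates biological and grown on 6-well plates, and no pair of them was a duplicate (chi-square per degree of freedom of at least 1.62). Positions and lengths came from GENCODE 29 and upstream sequences from RefSeq, both on GRCh38. The counts use a later Ensembl release of that assembly. The genes, the other gene lists and the settings were chosen with earlier results of these data known. The text names all 10 genes, up to 4 called genes of each list with the largest changes, and for each kinase the 3 genes of highest r among those with a mean of at least 1 CPM. MPC1 and PC were added after their values were seen. One result of the list for thiamine supply is not reported here. The fit was tested on simulated data.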

Additional observations from a re-analysis of the deposited data

How the results depend on the processing

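The calls of PDK1, PDK3 and PDK4 in hypoxia and with 32-134D, and of PDK1 against vehicle at 20% O2, held in each alternative fit run at a fold change above 1.5, namely DESeq2, 3 other scalings, 2 other filters, fits of 2 groups, thinning, the replicate block and each library left out. With a fold change above 2, 2 genes were called in hypoxia and 1 with 32-134D. Without a fold change threshold, 6 were called with 32-134D and 2 against vehicle at 20% O2. In hypoxia the number called stayed between 4 and 5 in the other fits, which lost PDHX and PDP1 or gained PDK2 as given above. PDHX was also lost at 0.58 with 10 or more counts in each library, and with the upper quartile PDK2 was -0.66, PDHX 0.50 and PDP1 0.56. With each library left out, the numbers called were 5, 3 and 1 throughout.

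Same-numbered libraries did not deviate together (r from -0.14 to 0.06 in 9 pairs), so the numbers were not taken to pair the samples. With the replicate block, 5, 3 and 1 genes were called, the same numbers as without it, and over all genes 4296 against 4412 were higher in hypoxia.

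Signs turned for values that were not called, and the cause was not tested. Most were close to 0, but PDP1 with 32-134D, at -0.42 and past the FDR, turned to 0.021 after thinning. PDHB in hypoxia was -0.022 with DESeq2, -0.0227 with its size factors in edgeR, -0.19 with total library size, -0.17 with the upper quartile and -0.085 with 10 or more counts in each library. With 32-134D, PDK2 in the same order was 0.0349, 0.0352, 0.17, 0.098 and 0.0729, and it was 0.0419 with 2 groups and 0.16 after thinning. PDHA1 with 32-134D was 0.12 with total library size, 0.051 with the upper quartile, 0.0255 with 10 or more counts in each library and 0.0041 after thinning. PDHB with 32-134D was 0.0938 with total library size, 0.0281 with the upper quartile and 0.0013 with 10 or more counts in each library. With each library left out, the log2 fold changes ran from -0.0533 to 0.0848 for PDHB in hypoxia, from -0.12 to 0.0763 for PDK2 and from -0.12 to 0.0467 for PDHA1 with 32-134D, and from -0.14 to 0.0505 for PDHB and from -0.19 to 0.17 for PDK3 against vehicle at 20% O2.

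With the longest transcript as length, the shares of PDK1, PDK2 and PDK3 were 2.99%, 82.2% and 10.5% in vehicle at 20% O2, 36.1%, 42.8% and 14.6% in vehicle at 1% O2 and 12.6%, 69.7% and 11.9% with 32-134D, where PDK4 held 5.83%. The ratio of kinases to phosphatases was then 3.22 in vehicle at 20% O2 and 2.62 with 32-134D. With the median coding transcript, the shares of PDK1, PDK2, PDK3 and PDK4 were 8.94%, 71.6%, 16.8% and 2.69% in vehicle at 20% O2 and 62.6%, 21.6%, 13.5% and 2.38% in vehicle at 1% O2. With 32-134D, PDK1 held 31.0%, PDK2 50.1% and PDK4 3.04%, and the ratio was 4.76, 10.4 and 4.62 in the 3 groups. Each group has 3 replicates, which limits the precision, as do, for PDK4 and PDP1, counts as low as 13 and 32.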
